A study of Mus musculus with 11 samples.

Results

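The arginine tRNAs of the CGN codon box were followed in embryonic fibroblasts of the mouse that express SV40 T antigen. The labels call the cells of all groups Wt, apart from the constructs they were given. They were taken by name from tables of tRNA abundance: every entry with the anticodon ACG, CCG or TCG. The rule uses the name alone, but it was set with earlier results of these data known. This gave 3 ArgACG, 3 ArgCCG and 4 ArgTCG entries, 10 of the 301 tRNA entries measured. There were 3 groups of 2 input libraries each: cells stably transduced with empty vector, cells given wild-type METTL1 together with WDR4, and cells given WDR4 together with METTL1-Mut, a METTL1 that the labels call mutant. Per the labels' protocols the lines were stable clones made with pBabe vectors and kept under puromycin and G418, with no antibiotic during expansion. The growth and treatment protocols speak of empty vector and the wild-type construct alone, and no source used here gives the change that the mutant carries. Input libraries were made from small RNA treated with wild-type and D135S AlkB, which removes base methylations that stop reverse transcription, and they did not go through the cleavage step that reads N7-methylguanosine (m7G). The 5 cleaved libraries of the series were not analysed here, so no m7G level is given. The tables hold tRNA alone, so neither METTL1 and WDR4 expression nor markers of the cell type were checked.

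A tRNA pairs through its anticodon with the codon in the mRNA and delivers the matching amino acid. Arginine has 6 codons, and those that begin with CG are read by the tRNAs described here. The adenosine at the wobble position of ArgACG is deaminated to inosine in mammalian cells, which lets this tRNA read CGU, CGC and CGA. ArgCCG pairs with CGG, and ArgTCG with CGA and, by wobble, CGG. The remaining arginine codons, AGA and AGG, belong to ArgTCT and ArgCCT. METTL1 transfers the methyl group of m7G onto a guanosine in the variable loop of certain tRNAs, among which ArgTCT is well known, and WDR4 is the subunit it works with.

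RefSeq annotation of GRCm38.p6, a patch release of the assembly that the authors' build name mm10 denotes, holds 14 tRNA genes of these anticodons, 6 for ACG, 3 for CCG and 5 for TCG, each 73 bases long. The 3 CCG genes are n-TRccg1 at chr11:107012866-107012938, n-TRccg2 at chr17:23550263-23550335 and n-TRccg3 at chr13:21215458-21215530. Chromosome 13 carries 7 of the 14 genes, between positions 21215458 and 23526528. Among these, n-TRacg4 at chr13:23500522-23500594 and n-TRtcg3 at chr13:23503980-23504052 are close neighbours. The TCG genes also include n-TRtcg4 at chr11:115413779-115413851 and n-TRtcg5 at chr7:79466419-79466491. No source used here pairs the numbered table entries with these genes, so a value below belongs to an entry and not to a locus.

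Abundance is given in RPM, the reads of an entry per 1000000 reads over all tRNA entries of the library. RPM is therefore a share of tRNA reads, and it does not show whether a cell held more or less tRNA in all. A lower share of cells that make a tRNA and a lower level per cell cannot be told apart either. The values imply totals of 5405585 reads in empty vector library 2 to 16003708 in empty vector library 1. Each of the 10 entries had at least 3430 implied reads in every library, so all 10 were far from the detection limit and none was at 0. Reads that fit several entries may have been counted more than once, which these totals would not show. Replicates differed by a median SD of 0.12 per CGN entry on the log2 scale in empty vector, 0.06 with wild-type METTL1 and 0.09 with the mutant, against 0.08, 0.06 and 0.15 over all 301 entries. Nothing in the labels says that the 2 libraries of a group came from separate cultures, so p-values cover no more than the differences between libraries, possibly technical ones. Since 2 libraries against 2 cannot give an exact permutation p under 0.333, differences were tested with limma, which pools the spread over entries, and a Benjamini-Hochberg adjusted p under 0.05 over all 301 entries was called.

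ArgACG2 was the most abundant CGN entry and the 18th most abundant of all 301. It stood at 18691 and 16921 RPM in the empty vector libraries 1 and 2, at 20312 and 19449 RPM for wild-type METTL1, and at 15182 and 16809 RPM for the mutant. The wild-type libraries were the highest of the 6 and the mutant libraries the lowest, with no overlap between any 2 groups. ArgACG1 followed with 11719 and 10533 RPM in empty vector, 12351 and 12665 RPM for wild-type METTL1, and 10595 and 11401 RPM for the mutant. Here too the wild-type libraries were the highest, while the mutant values lay inside the range of empty vector. The remaining ACG entry, ArgACG3, was the least abundant of the 10, at 669 and 635 RPM in empty vector, 596 and 588 RPM for wild-type METTL1, and 636 and 603 RPM for the mutant. It went the other way from ArgACG1 and ArgACG2, with its lowest values in the wild-type libraries.

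Of the CCG entries, which pair with CGG, ArgCCG2 was the most abundant, at 5784 and 8141 RPM in empty vector, 5107 and 5964 RPM for wild-type METTL1, and 6009 and 5732 RPM for the mutant. Empty vector library 2 stood far above the other 5 libraries, which overlapped across the groups. ArgCCG1 had 2968 and 3438 RPM in empty vector, 3279 and 3537 RPM for wild-type METTL1, and 3454 and 3136 RPM for the mutant, so all 3 groups overlapped. ArgCCG3 had 1361 and 1241 RPM in empty vector, 1493 and 1464 RPM for wild-type METTL1, and 1126 and 1319 RPM for the mutant. Its order of groups was that of ArgACG1, with wild type highest and mutant overlapping empty vector.

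Of the TCG entries, ArgTCG2 differed most between the constructs. It stood at 2154 and 2434 RPM in empty vector, 1944 and 2098 RPM for wild-type METTL1, and 2815 and 2784 RPM for the mutant. The groups did not overlap, and their order, mutant above empty vector above wild type, was the reverse of that of ArgACG2. ArgTCG4 had 1076 and 1213 RPM in empty vector, 955 and 1007 RPM for wild-type METTL1, and 1165 and 1170 RPM for the mutant. Its wild-type libraries were the lowest, and the mutant values lay inside the range of empty vector. ArgTCG3, at 3043 to 3631 RPM, and ArgTCG1, at 768 to 908 RPM, overlapped between all groups.

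**Figure D1:**
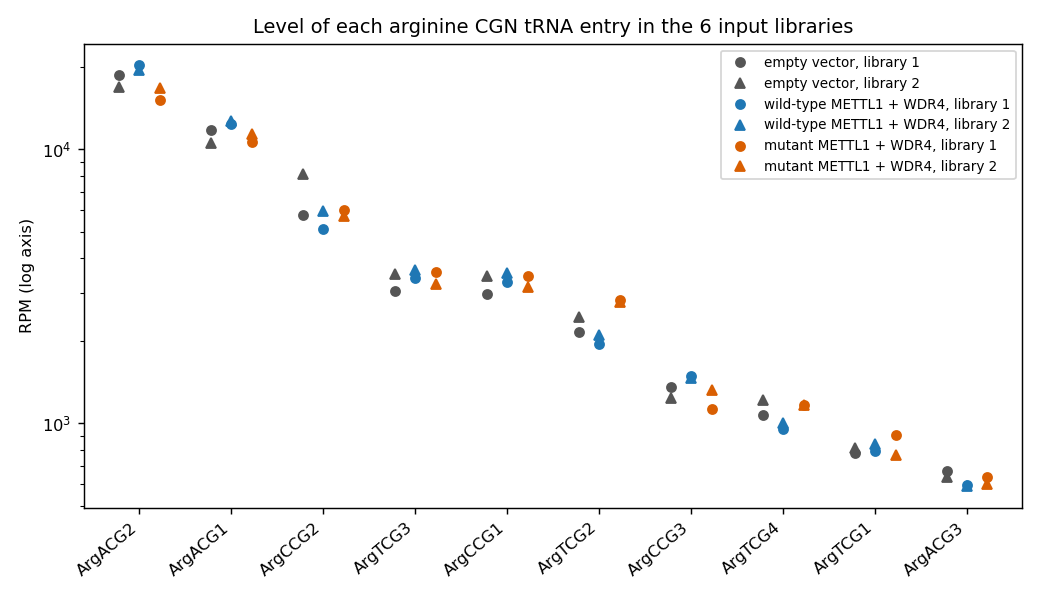
RPM of the 10 arginine CGN tRNA entries on a log axis, ordered by their mean over the 6 input libraries, with 1 point per library (circles library 1, triangles library 2, colours the construct). The order runs from ArgACG2, at 15182 to 20312 RPM, to ArgACG3, at 588 to 669 RPM. Neighbours do not overlap in range over the 6 libraries, apart from ArgTCG3 with ArgCCG1 and ArgCCG3 with ArgTCG4.

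The order of levels, from the mean over the 6 libraries, was ArgACG2, ArgACG1, ArgCCG2, ArgTCG3, ArgCCG1, ArgTCG2, ArgCCG3, ArgTCG4, ArgTCG1 and ArgACG3. The annotated genes of these anticodons have the same length, with the entry lengths themselves not given. The order is one of read shares, and whether all entries were captured and counted equally well was not tested. Neighbours in this order had ranges over the 6 libraries that did not overlap, apart from 2 pairs. ArgCCG3 and ArgTCG4 overlapped, and their order was turned around in mutant library 1, where ArgTCG4 stood at 1165 RPM and ArgCCG3 at 1126 RPM. ArgTCG3 and ArgCCG1 also overlapped. They carry different anticodons, yet their RPM lay 2.22% to 3.42% apart in every library, which makes them the only near-identical pair (within 5% in all 6 libraries, entries of at least 10 RPM) that involves a CGN entry. Reads shared between these entries would give such values, which was not tested, and they may not be separate measurements.

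In sums over the box, ArgTCG3 and ArgCCG1 were both counted. Summed over the 10 entries, the CGN box took 48242 and 48885 RPM in empty vector, or 4.82% and 4.89% of tRNA reads. It took 50209 and 51241 RPM for wild-type METTL1, and 45461 and 46957 RPM for the mutant. The groups did not overlap, with wild type highest and mutant lowest, while the log2 ratios of the group means were as small as 0.06 for wild type and −0.07 for mutant against empty vector. The box as a whole thus moved by less than many of its entries. Of all arginine tRNA reads, the CGN box held 61.9% and 58.0% in empty vector, 61.1% and 58.8% with wild-type METTL1, and 52.1% and 55.5% with the mutant. Both mutant libraries were below the other 4. In the mutant libraries the sum of ArgTCT and ArgCCT, 41737 and 37600 RPM, was above that in the other 4 libraries, where it ran from 29654 to 35925 RPM.

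Within the box, the ACG entries gave 64.4% and 57.5% of CGN reads in empty vector, 66.2% and 63.8% with wild-type METTL1, and 58.1% and 61.4% with the mutant. Empty vector library 1 lay among the wild-type libraries and empty vector library 2 below the mutant ones, so both constructs overlapped empty vector in this share, but not each other. The CCG share was 21.0% and 26.2% in empty vector and between 19.7% and 23.3% in the 4 METTL1 libraries. ArgCCG2 alone made up 16.7% of CGN reads in empty vector library 2, against 10.2% to 13.2% in the other 5 libraries. The TCG share was 14.6% and 16.3% in empty vector, 14.1% and 14.8% with wild-type METTL1, and 18.6% and 16.9% with the mutant, whose libraries were the highest. These shares add up to the whole, so a rise of one anticodon lowers the others. ArgTCG3, at 6.31% to 7.86% of CGN reads, is in the TCG share, and ArgCCG1, at 6.15% to 7.60%, in the CCG share. As these entries may not be separate measurements, the split between both anticodons and the sum of the box are uncertain by that much.

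**Figure D2:**
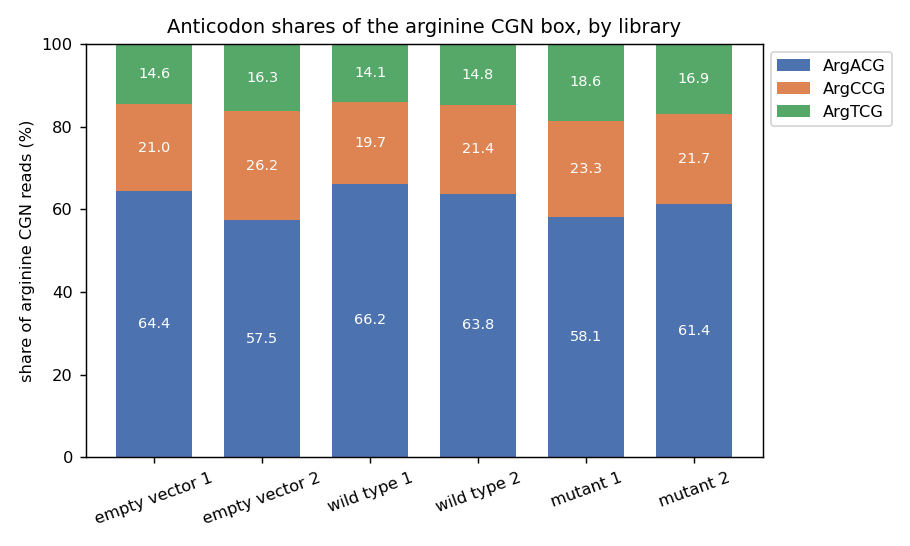
Share of arginine CGN reads (%, vertical axis) held by the ACG, CCG and TCG entries in each of the 6 input libraries, as stacked bars that add up to 100%. ACG holds 57.5% to 66.2% in every library, and the TCG share is highest in the mutant libraries, at 18.6% and 16.9%. Reads shared between ArgTCG3 and ArgCCG1 would count in both the TCG and the CCG share, which was not tested.

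The wild-type libraries were first compared with empty vector, to see which CGN tRNAs differ between these lines. As the lines were stable clones, a difference between clones cannot be told apart from one that goes with the construct. ArgACG2 rose from 17806 ± 1251 to 19880 ± 610 RPM (SD of 2 libraries in each group; log2 difference 0.16, SE 0.06, limma adjusted p = 0.047), although its difference was −0.0018 when libraries were centred on the median deviation of all entries, a scaling chosen after the data were seen. ArgCCG2 fell from 6963 ± 1667 to 5536 ± 606 RPM (log2 difference −0.31, SE 0.11, limma adjusted p = 0.033), with ranges that overlapped between the groups. The other 8 entries were not called (limma adjusted p from 0.052 to 0.81). Thus 1 of 10 CGN entries was higher and 1 lower, against 30.2% higher and 7.31% lower among all 301 entries, and 4 of 10 had an unadjusted p under 0.05, against 44.9% of all entries. Under the median-deviation centring the calls over all entries were 53 higher and 57 lower, and under centring on the median level 51 and 3, in place of 91 and 22. The median log2 difference of the CGN entries was 0.06, and that of all entries 0.16, so ArgACG2 moved like the median entry.

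Entries that were not called included several whose libraries were apart. ArgACG1 had a log2 difference of 0.17 (SE 0.07, limma adjusted p = 0.052) and ArgCCG3 of 0.19 (SE 0.09, limma adjusted p = 0.12). On the lower side, ArgTCG4 had −0.22 (SE 0.10, limma adjusted p = 0.077), ArgTCG2 −0.18 (SE 0.09, limma adjusted p = 0.13) and ArgACG3 −0.14 (SE 0.10, limma adjusted p = 0.29). In these 5 entries and in ArgACG2 the groups did not overlap, 6 of 10 entries against 64.5% of all 301. ArgTCG3, ArgCCG1 and ArgTCG1 had log2 differences of 0.10, 0.09 and 0.03, with overlapping groups. In the authors' deposited table the unadjusted p-values of the 10 entries ran from 0.0786 to 0.605, with no count made over all entries there.

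Both calls were lost when some single libraries were left out, and also under other settings given in the closing section. The ArgACG2 difference was 0.09 without empty vector library 2 (limma adjusted p = 0.41), 0.13 without wild-type library 1 (limma adjusted p = 0.52) and 0.19 without wild-type library 2 (limma adjusted p = 0.27), over a range of 0.0063 to 0.99 for its adjusted p in all 15 alternatives, of which 6 kept a call. ArgCCG2 had the 14th largest gap of all 301 entries between the empty vector libraries, 0.49 on the log2 scale. Its difference was −0.07 without empty vector library 2 (limma adjusted p = 0.53), −0.56 without empty vector library 1 (limma adjusted p = 3.4e-10), −0.20 without wild-type library 1 (limma adjusted p = 0.40) and −0.43 without wild-type library 2 (limma adjusted p = 0.027), and 8 of its 15 alternatives kept a call.

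**Figure D3:**
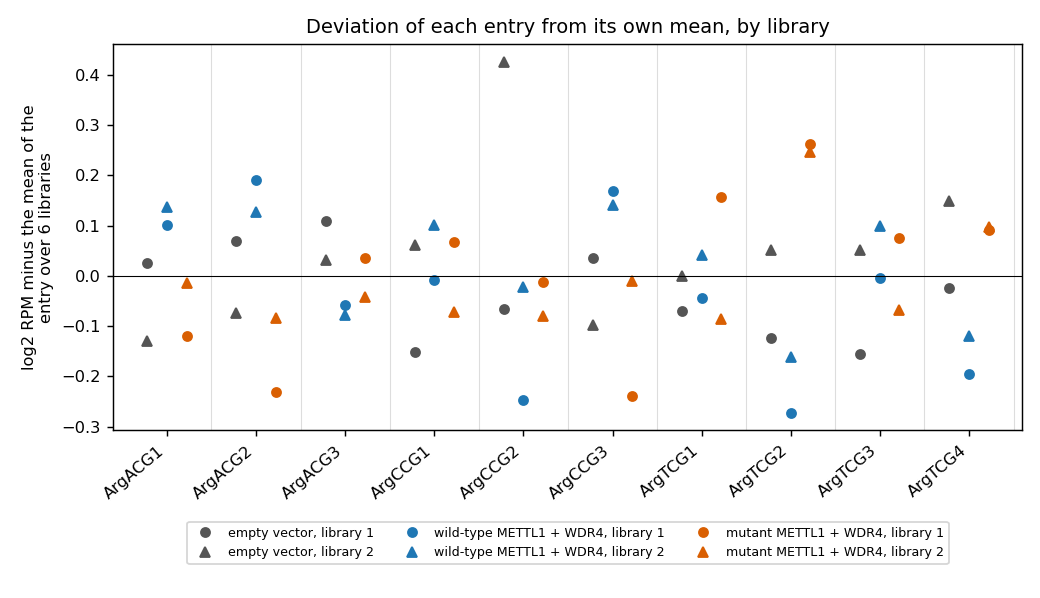
log2 RPM of each arginine CGN entry minus its own mean over the 6 input libraries (vertical axis), with 1 point per library (circles library 1, triangles library 2, colours the construct). In ArgACG2 the wild-type libraries are highest and the mutant libraries lowest, in ArgTCG2 this order is reversed, and in ArgCCG2 empty vector library 2 stands above all others.

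The second comparison set the METTL1 labelled mutant against the same empty vector libraries. No CGN entry was called by limma in either direction, 0 of 10 against 8.31% of all 301 entries, and 1 of 10 had an unadjusted p under 0.05, against 15.9% of all entries. The calls over all entries were 22 higher and 3 lower, and 14 and 4 under the median-deviation centring. The CGN entry with the low unadjusted p was ArgTCG2, whose mean was 2294 ± 198 RPM for empty vector against 2799 ± 21.8 RPM for the mutant (SD of 2 libraries in each group; log2 difference 0.29, SE 0.14, limma adjusted p = 0.27). ArgACG2 had a difference of −0.15 (SE 0.19, limma adjusted p = 0.75) and ArgCCG2 of −0.23 (SE 0.16, limma adjusted p = 0.49). ArgTCG2 and ArgACG2 were the only CGN entries whose groups did not overlap, 1 higher and 1 lower, against 48.2% of all 301 entries in either direction. The other 7 differences lay between −0.09 for ArgCCG3 and 0.07 for ArgTCG1, and the median of the 10 was 0.0077, against 0.09 for all entries.

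In this comparison and in that between the METTL1 constructs, the main limma fit used the spread pooled over entries alone. The gap between the libraries of an entry thus had no part in its SE or p-value. The pooled spread was wider for mutant against empty vector, with standard errors of 0.14 to 0.19 against 0.06 to 0.11 for wild type. The absence of calls therefore does not show that the levels were the same. No alternative limma fit gave a call for any CGN entry in this comparison. The unadjusted p-values of the 10 entries in the authors' deposited table ran from 0.0695, for ArgTCG2, to 0.874.

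The METTL1 constructs were then tested against each other. ArgTCG2 was lower in the wild-type libraries, at 2021 ± 109 RPM, than in the mutant ones, at 2799 ± 21.8 RPM (SD of 2 libraries in each group; log2 difference −0.47, SE 0.12, limma adjusted p = 0.0022). It was the only CGN entry called, 1 of 10 lower and 0 higher, against 3.65% lower and 11.3% higher among all 301 entries, and 3 of 10 had an unadjusted p under 0.05, against 25.9% of all entries. The calls over all entries were 34 higher and 11 lower, and 18 and 17 under the median-deviation centring. The other TCG entry with groups apart, ArgTCG4, stood at 981 ± 36.5 against 1167 ± 3.60 RPM (log2 difference −0.25, SE 0.12, limma adjusted p = 0.16). In the opposite direction lay ArgACG2, at 19880 ± 610 against 15996 ± 1150 RPM (log2 difference 0.32, SE 0.18, limma adjusted p = 0.25). ArgCCG3, at 1478 ± 20.8 against 1222 ± 137 RPM, had a log2 difference of 0.28 (SE 0.12, limma adjusted p = 0.11), and ArgACG1 one of 0.19 (SE 0.16, limma adjusted p = 0.45).

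The 5 entries ArgTCG2, ArgTCG4, ArgACG1, ArgACG2 and ArgCCG3, and also ArgACG3 with −0.06, had groups that did not overlap, 6 of 10 against 58.5% of all 301 entries. The remaining entries had log2 differences from −0.09 for ArgCCG2 to 0.05 for ArgCCG1. The median of the 10 was 0.0034, against 0.10 for all entries. ArgTCG2 was no longer called without wild-type library 1 (−0.42, limma adjusted p = 0.34) or without wild-type library 2 (−0.53, limma adjusted p = 0.14), and the call held in the other 13 alternatives, with an adjusted p from 7.3e-07 to 0.34 over all 15. With replicate number as a block the adjusted p was 0.019.

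**Figure D4:**
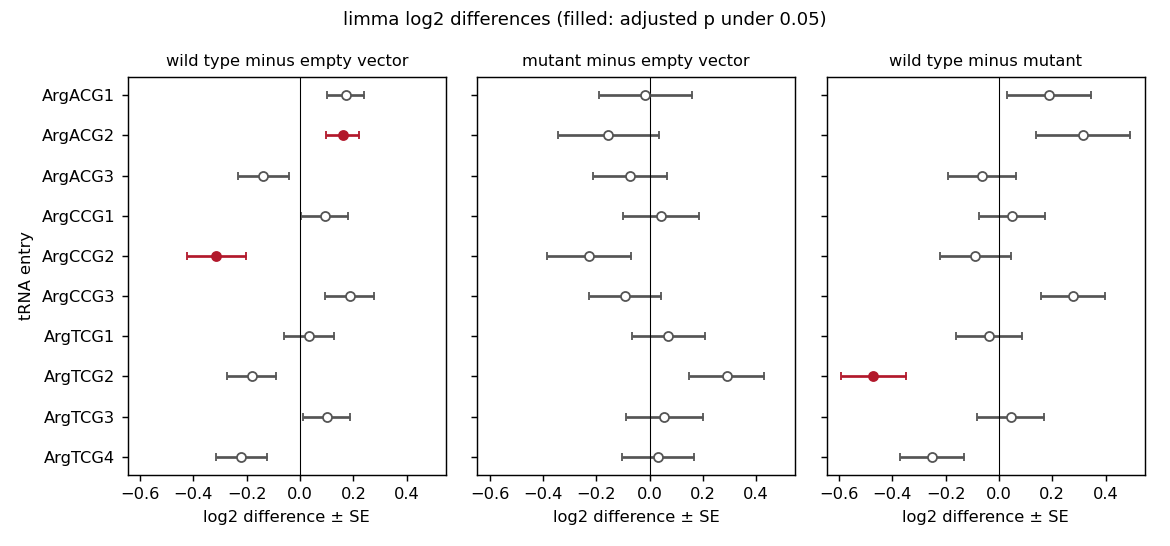
limma log2 differences of the 10 arginine CGN entries (horizontal axis, bars 1 SE, 4 libraries per comparison) for wild type minus empty vector, mutant minus empty vector and wild type minus mutant, with filled red points for an adjusted p under 0.05. ArgACG2 and ArgCCG2 are called in the first panel, none in the second and ArgTCG2, at −0.47, in the last.

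The ratio of ArgACG2 to ArgTCG2, which can both read CGA, puts their opposite patterns into 1 value. ArgACG2 was 8.68 and 6.95 times as abundant as ArgTCG2 in empty vector, 10.4 and 9.27 times with wild-type METTL1, and 5.39 and 6.04 times with the mutant. The groups did not overlap. This follows from the opposite orders of both entries, whose groups were already apart, and the pair was chosen after its values were seen. Within an anticodon, entries also moved unequally, here in a pair that was likewise not set in advance and that again includes ArgTCG2. ArgTCG2 was 2.00 and 2.01 times as abundant as ArgTCG4 in empty vector, 2.04 and 2.08 times with wild-type METTL1, and 2.42 and 2.38 times with the mutant, so this ratio, too, differed between mutant and the other libraries by more than the gap between replicates.

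Patterns over the 6 libraries were compared by the root mean square difference of log2(RPM + 1) deviations from each entry's mean, as a description. Among CGN entries the near-identical pair ArgCCG1 and ArgTCG3 was closest, at 0.0059. ArgACG2 and ArgCCG3, which have different anticodons and unlike levels, came next at 0.0363. ArgACG2 and ArgTCG2 were farthest apart, at 0.342. Outside the box, the entries most like ArgACG2 among 233 with a mean of at least 10 RPM were the cysteine entries CysGCA46, CysGCA131 and CysGCA98, at 0.0417, 0.0424 and 0.050. Those most like ArgCCG2 were ValTAC10 at 0.0925, ArgCCT22 at 0.118 and AlaAGC761 at 0.162. Those most like ArgTCG3 were GluTTC15 at 0.0443, MetCAT30 at 0.0773 and ArgCCT55 at 0.0929. All these entries share the same 6 libraries and their depths.

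The 10 entries of the other arginine tRNAs, 6 ArgTCT and 4 ArgCCT, were taken as a fixed list beside the box. With wild-type METTL1 2 of 10 were higher and 0 lower, against 30.2% and 7.31% of all entries, and the median log2 difference was 0.11, against 0.16. They ranged from ArgCCT22 (−0.12, SE 0.09, limma adjusted p = 0.34) to ArgTCT81 (1.51, SE 0.16, limma adjusted p = 4.6e-07), whose libraries read 15.1 and 23.9 RPM in empty vector against 53.3 and 58.9 RPM for wild type. With the mutant 3 of 10 were higher and 0 lower, against 7.31% and 0.997% of all entries, at a median of 0.24, against 0.09. They ranged from ArgCCT1 (−0.26, SE 0.14, limma adjusted p = 0.33) to ArgTCT81 (2.06, SE 0.18, limma adjusted p = 4.2e-25), with 95.9 and 71.2 RPM in the mutant libraries. The p-value for ArgTCT81 rests on the pooled spread alone and takes no account of the gap between its libraries. ArgCCT118, which decodes AGG and was named after its values were seen, is close to ArgACG2 in level. It stood at 11434 and 13707 RPM in empty vector, 13415 and 15714 RPM for wild-type METTL1, and 18334 and 18661 RPM for the mutant.

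For ArgCCT118 the log2 difference was 0.21 for wild type (SE 0.08, limma adjusted p = 0.045), lost without empty vector library 1 (0.08) and without wild-type library 2 (0.10), and 0.56 for the mutant (SE 0.19, limma adjusted p = 0.035), lost without empty vector library 1 (0.43) or 2 (0.69). The ArgCCT118 calls were kept in 6 of 15 alternatives for wild type and in 11 of 16 for the mutant. ArgTCT31, the other entry that rose with the mutant, had a difference of 0.52 (SE 0.14, limma adjusted p = 0.0071). Its call was lost without empty vector library 1 (0.37) and without mutant library 1 (0.23), and kept in 13 of 16 alternatives. Between the constructs 2 of 10 entries were lower with wild-type METTL1, ArgTCT81 (−0.55, SE 0.17, limma adjusted p = 0.015) and ArgTCT31 (−0.49, SE 0.13, limma adjusted p = 0.0039), and 0 were higher, against 3.65% lower and 11.3% higher of all entries. The median of the 10 was −0.13, against 0.10. Leaving out wild-type library 1, wild-type library 2 or mutant library 1 ended both calls.

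**Figure D5:**
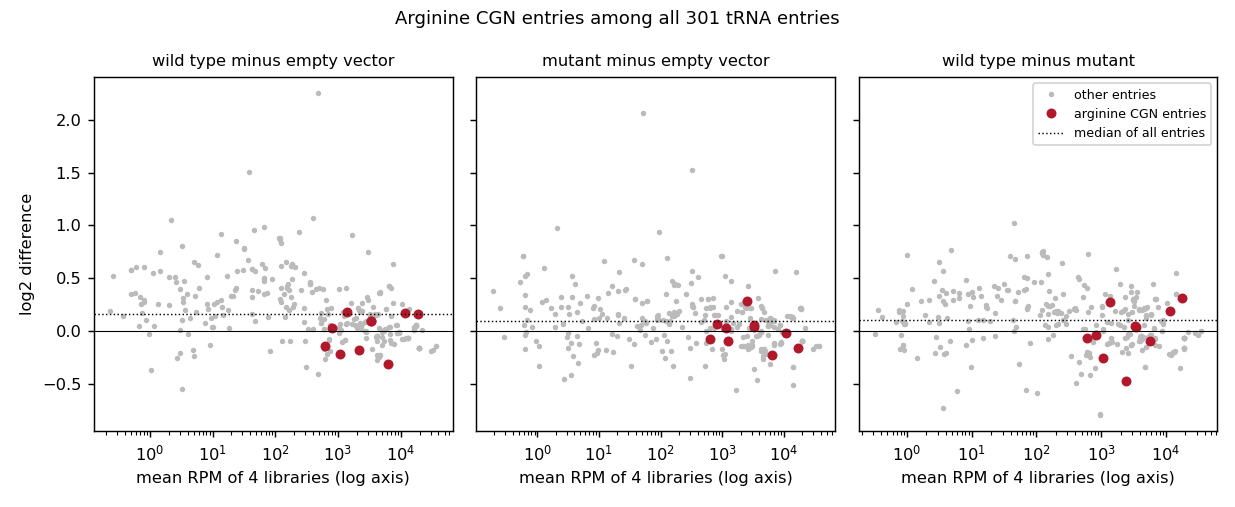
log2 difference (vertical axis) against mean RPM of the 4 libraries of the comparison (horizontal log axis) for all 301 tRNA entries, with the 10 arginine CGN entries in red and the median of all entries as a dotted line at 0.16, 0.09 and 0.10 from left to right. The CGN entries are among the more abundant ones and lie between −0.47 and 0.32, while the outermost other entries pass 2 in the first and second panel.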

How the data were processed

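Small RNA was measured in 6 input libraries, 2 for each of 3 constructs, and the deposited abundance tables, 1 for each METTL1 construct, hold the same 301 entries and the same empty vector columns. The deposited values are RPM: the reads of an entry, scaled by the authors so that a library sums to 1000000 over tRNA. The authors also deposited a fold change (ratio of mean RPM) and an unadjusted p-value, with no test named in the sources used here. The submitters' processing notes name bedtools, Bowtie, Trim Galore and the build mm10, with no versions, and how reads that fit several entries were counted is likewise not given in the sources used here.

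RPM was transformed to log2(RPM + 1), without a filter, so fold changes of low entries are understated. Each comparison was fitted to its own 4 libraries in limma 3.58.1 under R 4.3.3, with a variance trend, and p-values were adjusted over 301 entries by Benjamini-Hochberg. The fit was tested on simulated data, with independent noise and with changes larger than those of the CGN entries. That test gave near-identical entries separate noise, so it does not vouch for the calls given here. The members, the lists and the variance trend were chosen with earlier results of these data known. Implied reads come from the common step of the low values in a library, within 0.01 reads for the 60 lowest values, and served for depth alone. All CGN entries are named, as are the extreme ArgTCT and ArgCCT entries and the 3 entries most alike in pattern to the most abundant entry of each anticodon, by a fixed rule. ArgCCT118 and ArgTCT31 were added after their values were seen. Tests on counts, which were planned if the values held counts, were not run. Alternatives are given in the closing section.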

Additional observations from a re-analysis of the deposited data

How the results depend on the processing

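For wild type against empty vector, 2 of 10 CGN entries were called. The count was 0 with a pseudocount of 10 (83 higher and 20 lower of 301 entries) and without the variance trend (74 and 4). It was also 0 with all 6 libraries in 1 fit (69 and 2). With libraries centred on the median level of all entries it was 0 as well (51 and 3). The count was likewise 0 when near-identical entries were merged (67 and 8 of 247). It was 4 at a minimum mean of 10 RPM (89 higher and 24 lower of 245 entries tested) or 100 RPM (57 and 20 of 202), and 4 (all lower) when libraries were centred on the median deviation of all entries, a scaling chosen after the data were seen, which shifted the median of all entries by −0.16 and called 53 higher and 57 lower of 301. It ran from 0 to 6 when 1 library was left out, and was 0 without wild-type library 1 (58 and 0 of 301), 1 without wild-type library 2 (50 and 2) and 6 without empty vector library 1 (116 and 26), against 91 and 22 with all libraries. For the mutant it was 0 in every alternative run. For wild type against mutant the main count of 1 became 2 under the median-deviation centring, and it ran from 0 to 5 when 1 library was left out, with 1 higher and 2 lower of 301 without wild-type library 2 and 87 and 43 without mutant library 2.

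Of the other arginine entries, 2, 3 and 2 were called in the 3 comparisons in this order. For wild type at a minimum mean of 1 RPM, 89 higher and 21 lower of 284 entries tested were called. In the other wild-type settings that follow, apart from those with 1 library left out, calls over all entries were as given above. For wild type the count was 1 at a minimum mean of 1 or 100 RPM, without the variance trend, with all 6 libraries, with level centring and with entries merged, and 1 to 3 with 1 library left out. For the mutant it moved in both directions with 1 library left out, and calls over all entries in those fits are not given here. Between the constructs it was 1 at a minimum of 100 RPM and 1 with the replicate block, and 0 to 7 with 1 library left out. Calls over all entries between the constructs are not given here for the minimum of 100 RPM and the replicate block. With 1 library left out they moved widely as well, as given above without wild-type library 2 and without mutant library 2. The range of the arginine counts is therefore not read as particular to these entries. The log2 ratio of the summed box kept its sign with 1 library left out. It lay at 0.05 to 0.08 for wild type, −0.10 to −0.05 for mutant and 0.11 to 0.16 between them.

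Several differences turned sign. Under the median-deviation centring these were ArgACG2 (−0.0018), ArgCCG1 (−0.070), ArgTCG1 (−0.13), ArgTCG3 (−0.063) for wild type, ArgCCG1 (−0.015), ArgTCG3 (−0.0023), ArgTCG4 (−0.027) for mutant, and ArgCCG1 (−0.055), ArgTCG3 (−0.060) between the constructs. Under level centring they were ArgCCG1 (−0.0017), ArgTCG4 (−0.014) for mutant. With 1 library left out, sign turned over ranges given here for ArgCCG1 (−0.014 to 0.20), ArgCCT22 (−0.29 to 0.045), ArgTCG1 (−0.0094 to 0.076), ArgTCG3 (−0.0043 to 0.20) for wild type, for ArgACG1 (−0.093 to 0.061), ArgCCG1 (−0.063 to 0.15), ArgCCG2 (−0.47 to 0.021), ArgCCG3 (−0.21 to 0.022), ArgTCG1 (−0.051 to 0.19), ArgTCG3 (−0.048 to 0.16), ArgTCG4 (−0.055 to 0.12) for mutant, and for ArgCCG1 (−0.020 to 0.12), ArgCCG2 (−0.20 to 0.023), ArgTCG1 (−0.16 to 0.084), ArgTCG3 (−0.028 to 0.12) between the constructs. Apart from ArgACG2 under the median-deviation centring, no called CGN difference turned sign.

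Replicate numbers are not said to mark a shared batch. Deviations of same-numbered libraries over all entries correlated at 0.09 for wild type and empty vector, −0.12 for mutant and empty vector and −0.05 between the METTL1 constructs. Over the 10 CGN entries these values were 0.94, −0.57 and −0.59, so same-numbered wild-type and empty vector libraries deviated together in these entries. The fit with the replicate block called as many CGN entries in each comparison as the fit without it. For wild type the block fit called 89 higher and 23 lower of 301 entries. For the other comparisons its calls over all entries are not given here. With the block, ArgCCT118 for mutant and ArgTCT81 between the constructs were no longer called. A crossed block for mutant against empty vector was chosen after the data were seen. It called no CGN entry and as many other arginine entries as the main fit, with calls over all entries not given here. The planned tests on counts were not run, since the values are RPM. A library left alone in its group is taken to vary like the others. Each CGN entry had at least 3430 implied reads per library, and how depth bears on precision was not tested. Where a call changed with a setting, the cause was not tested.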
